A study of Homo sapiens with 48 samples.

Results

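Genes for angiogenic factors and VEGF receptors were followed in stimulated human fibroblasts, namely the ligands VEGFA, VEGFC and PGF, the receptor FLT1, the co-receptors NRP1 and NRP2, and the secreted factors ANGPT1, ANGPTL4, ESM1 and STC1. These 10 genes were taken by name from the 29744 genes of the count table, and all 10 were found there. The names were chosen with earlier results of these data known, and the genes to be described were selected on detection in these libraries, so that neither their detection nor the number of them that changed is a finding. VEGFC, FLT1, NRP1, NRP2, ANGPT1, ANGPTL4, ESM1 and STC1 were above 0 in all 48 libraries. VEGFA was above 0 in 43 libraries but exceeded 3 counts in only 28 of them. PGF was above 0 in 24 libraries and above 3 counts in 8. After the filter on low counts 9 of the 10 genes were tested in each arm, and PGF in neither.

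The fibroblasts carried an mNeonGreen reporter at IL11 and were derived from CRL-4001, an immortalized human skin fibroblast line. In the CRISPRko arm the cells expressed Cas9 and received a lentiviral guide RNA that was non-targeting (H47_Ctrl) or directed at GLIS3 (H47_KO). In the CRISPRa arm the cells expressed dCas9 fused to the activator VP64, and the corresponding populations are VP64_Ctrl and VP64_A. Both arms go back to reporter cells sorted as single-cell clones, but each of the 4 populations was selected in bulk with antibiotics after it received its guide, so an H47_KO library averages over cells with different edits, and dCas9 does not cut. TGFβ and IL-1β (10 ng/ml each) were present for 0, 6, 12 or 24 h before all cells were collected together, with 3 libraries per condition and 12 per population. The labels give no batch. They carry running numbers and no replicate number, and the replicate numbers used here follow that order within a condition. The study describes its cell culture experiments in general as made with independent biological replicates, whereas the labels of these libraries do not say how the 3 were separated, and p-values measure the spread between them. A library held between 2321990 and 10661004 estimated counts.

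GLIS3, a zinc-finger transcription factor and the gene targeted in both arms, was examined first. In H47_Ctrl it stood at 2.03, 1.45 and 2.16 at 0 h, 6.47, 4.78 and 4.42 at 6 h, 3.31, 3.60 and 2.18 at 12 h, and 2.47, 2.80 and 3.80 at 24 h, in CPM, the count scaled to the TMM-adjusted library total. GLIS3 stood at 0.354, 0.144 and 0.395 at 0 h, 1.37, 1.49 and 1.61 at 6 h, 1.45, 0.933 and 1.57 at 12 h, and 1.04, 1.21 and 1.63 at 24 h in H47_KO. The ranges of H47_KO and H47_Ctrl did not overlap at any of the 4 times, and the difference passed the test at 0 h only, with a log2 fold change of -2.55 ± 0.56 (SE; adjusted p = 0.0355). In the CRISPRa arm GLIS3 was at 2.65, 1.91 and 2.10 at 0 h, 4.01, 6.31 and 3.48 at 6 h, 3.55, 3.47 and 3.13 at 12 h, and 3.14, 2.92 and 3.71 at 24 h in VP64_Ctrl. VP64_A libraries held 23.3, 27.4 and 32 at 0 h, 35.6, 30.5 and 36.7 at 6 h, 31.1, 20.7 and 16.6 at 12 h, and 30.03, 28.1 and 24.3 at 24 h, above every VP64_Ctrl library. The sample titles of this arm name the opposite populations as control, whereas the descriptions go with the level of GLIS3, so the names VP64_Ctrl and VP64_A follow the descriptions and every direction in this arm rests on that reading. IL11, the reporter gene, was higher in VP64_A than in VP64_Ctrl at 6 h, by a log2 fold change of 2.64 ± 0.25 (SE; adjusted p = 5.15e-09), with 229.9, 323 and 302 CPM against 31.8, 50.7 and 58.5. Between H47_KO and H47_Ctrl it passed at no time, with log2 fold changes of -1.04, -0.04, -1.02 and -0.08 at 0, 6, 12 and 24 h. IL11 rose from 0 to 6 h in all 4 populations, by log2 fold changes of 2.59 ± 0.40 in H47_Ctrl, 3.60 ± 0.45 in H47_KO, 2.86 ± 0.27 in VP64_Ctrl and 5.04 ± 0.28 in VP64_A (SE; adjusted p from 7.83e-16 to 9.32e-06). One library stood apart, since the 50 most abundant genes took 23.1% of the counts in replicate 3 of VP64_Ctrl at 0 h and between 30.7% and 46.4% in the other 47.

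VEGF-family ligands act on receptor tyrosine kinases of endothelial cells: VEGFA and PGF bind FLT1 (VEGFR1), VEGFA also binds KDR (VEGFR2), and VEGFC acts through FLT4 (VEGFR3) on lymphatic endothelium. The neuropilins NRP1 and NRP2 lack a kinase of their own and serve as co-receptors for VEGF ligands and for class 3 semaphorins. Angiopoietin 1 activates the endothelial receptor TEK, and stromal cells such as fibroblasts are a known source of such ligands for nearby vessels. In the present libraries KDR and FLT4 were at 0 counts in all 48, and a count of 0 allows up to 3 counts in a library. The 10 fibroblast markers were all present, with a summed level between 11386 and 32104 TPM (a level scaled for transcript length and library total) and VIM as the most abundant. Of 15 endothelial markers 7 exceeded 3 counts in any library and 2 in most libraries, and their summed level lay between 0.351 and 9.07 TPM, led by EGFL7. KDR, ERG, PLVAP, SOX17 and SOX18 were at 0 throughout, CDH5 reached 1 count and PECAM1 reached 9. ROBO4 exceeded 3 counts in 34 libraries (at most 69 counts), EGFL7 in 27 (at most 28), TIE1 in 19 (at most 18) and TEK in 16 (at most 57). The values are bulk averages, in which fewer cells of a type and less RNA per cell cannot be told apart.

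In TPM, the only scale used here to compare genes with each other, NRP1 had the highest level of the 10 genes at 0 h in all 4 populations, with means of 97.4 in H47_Ctrl, 116 in H47_KO, 138 in VP64_Ctrl and 51.4 in VP64_A. Its libraries did not overlap those of the next gene, which was ANGPT1 in 3 populations and ESM1 in VP64_Ctrl. ESM1 took first place at 6 h in every population, at mean levels of 445, 680, 1150 and 366 TPM in H47_Ctrl, H47_KO, VP64_Ctrl and VP64_A, and it was still first at 12 h. ANGPTL4 followed at 6 h, with 289 TPM in H47_Ctrl, 241 in H47_KO, 89.3 in VP64_Ctrl and 95.1 in VP64_A. By 24 h the leading pair overlapped in all 4 populations: NRP1 (37.6 TPM) and ESM1 (27.2) in H47_Ctrl, ESM1 (59.8) and NRP1 (51.6) in H47_KO, ESM1 (76.3) and NRP1 (54.1) in VP64_Ctrl, and STC1 (59.9) and ESM1 (54.2) in VP64_A. VEGFA and PGF were the lowest members in all 16 conditions, and neither had a condition mean above 2.63 TPM. FLT1, NRP2, VEGFC and ANGPT1 lay between these extremes and overlapped one another in many conditions.

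**Figure D1:**
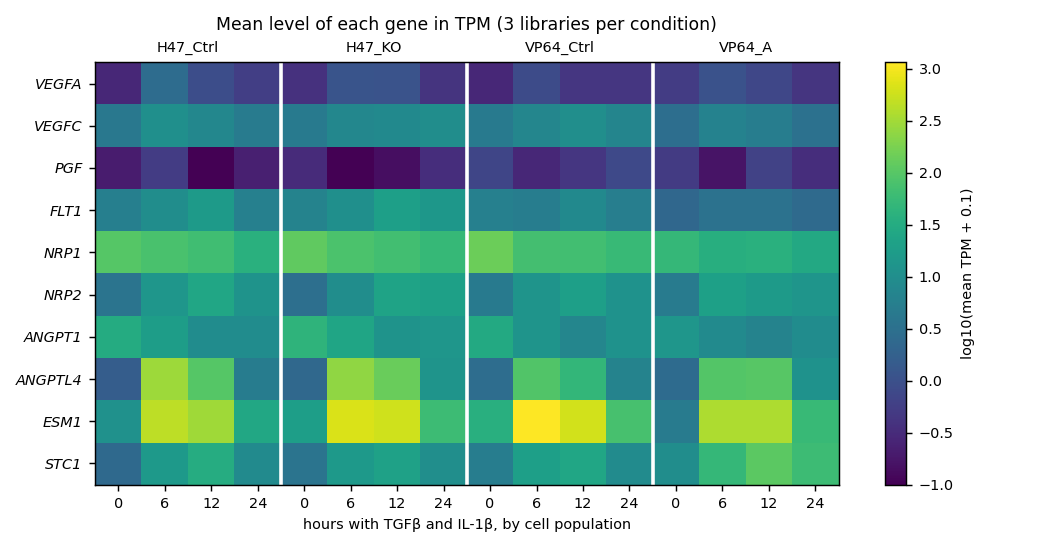
Mean level of each of the 10 genes in the 16 conditions, as the log10 of mean TPM plus 0.1 (colour), with rows for genes and columns for hours with TGFβ and IL-1β within each population of cells (3 libraries per condition). NRP1 is the brightest row at 0 h, ESM1 and ANGPTL4 brighten at 6 and 12 h, and VEGFA and PGF stay dark throughout.

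VEGFA, the main ligand of the family, lies on the plus strand of chromosome 6 (GRCh38, 43770184 to 43786487). It was measured close to the floor of the counts. Its counts in H47_Ctrl were 2, 0 and 2 at 0 h, 23, 34 and 11 at 6 h, 6, 3 and 3 at 12 h, and 3, 1 and 6 at 24 h. In H47_KO they were 0, 0 and 7 at 0 h, 6, 5 and 6 at 6 h, 11, 15 and 6 at 12 h, and 3, 3 and 0 at 24 h. The 2 highest counts of the knockout arm, 34 and 23, were in H47_Ctrl at 6 h, whereas its remaining 6 h library, with 11, lay within the range of H47_KO at 12 h. VP64_Ctrl held 2, 3 and 2 at 0 h, 7, 4 and 7 at 6 h, 5, 3 and 1 at 12 h, and 4, 1 and 5 at 24 h. VP64_A held 6, 7 and 5 at 0 h, 9, 7 and 9 at 6 h, 4, 10 and 4 at 12 h, and 2, 4 and 0 at 24 h. No library of the CRISPRa arm exceeded 10 counts. Pooled over 3 libraries, the ratio of the 6 h level to the 0 h level was 17.4 in H47_Ctrl, with a 95% interval for counting error alone of 6.50 to 65.8 (68 counts against 4). It was 4.37 (1.72 to 12.5) in H47_KO, 4.15 (1.66 to 11.8) in VP64_Ctrl and 2.26 (1.18 to 4.39) in VP64_A. VEGFA entered edgeR's test only through libraries in which it was high. The filter asked for 2.06 CPM (CRISPRko) or 1.87 CPM (CRISPRa) in 3 libraries. For the filter, unlike elsewhere here, CPM was scaled to the library total without TMM adjustment. On that scale 5 libraries reached the limit in the CRISPRko arm (3 of H47_Ctrl at 6 h, 1 of each population at 12 h) and 3 in the CRISPRa arm (all at 6 h), with none at 0 h. The p-values of its rise thus come from a gene admitted by that rise and are given as a description. In that test over libraries the rise at 6 h passed in H47_Ctrl (adjusted p = 0.00116), H47_KO (adjusted p = 0.0363) and VP64_Ctrl (adjusted p = 0.00796) but not in VP64_A (adjusted p = 0.153). H47_KO also passed at 12 h (adjusted p = 0.0311), and VEGFA fell between 6 and 24 h in H47_Ctrl and H47_KO (adjusted p = 0.0460 and 0.0294). With no filter on low counts, where VEGFA needs no such admission, the rise at 6 h gave adjusted p-values of 4.49e-05 in H47_Ctrl, 0.0203 in H47_KO and 0.0152 in VP64_Ctrl. Apart from the rise in H47_Ctrl at 6 h, the calls with the filter did not withstand the loss of single libraries. The rise at 6 h in H47_KO was lost without any of the replicates 1, 2 and 3 at 6 h or replicates 1 and 2 at 0 h (adjusted p from 0.0689 to 0.136). That in VP64_Ctrl was lost without replicate 3 at 6 h (0.0758), and that of H47_KO at 12 h without replicate 1 or 2 at either time (0.0589 to 0.137). The fall in H47_Ctrl was lost without any of its 24 h libraries or replicate 1 or 2 at 6 h (0.0545 to 0.205), and the fall in H47_KO without any 6 h library or replicate 3 at 24 h (0.0616 to 0.164).

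PGF, placental growth factor, encodes a ligand of FLT1 and lies on the minus strand of chromosome 14 (74941834 to 74955626). Its highest count in any library was 14, in VP64_Ctrl at 24 h, where the other libraries held 0 and 2. Its median was 0.0631 TPM over 48 libraries, and it was not put to edgeR's test. Of 12 ratios of a later time to 0 h, pooled over 3 libraries, 1 had a 95% counting interval that did not hold 1: in VP64_A at 6 h there was 1 count against 13 at 0 h, a ratio of 0.1249 (0.00294 to 0.832), and 9 of those 13 counts lay in 1 library.

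VEGFC, whose product drives lymphatic growth, lies on the minus strand of chromosome 4 (176683538 to 176792922, 7 exons). In CPM it stood at 5.27, 4.99 and 4.32 at 0 h, 15.4, 11.3 and 10.8 at 6 h, 8.83, 10.5 and 10.9 at 12 h, and 6.09, 6.54 and 6.66 at 24 h in H47_Ctrl. H47_KO libraries gave 2.12, 5.05 and 7.24 at 0 h, 12.3, 9.91 and 13.9 at 6 h, 13.4, 14.5 and 7.57 at 12 h, and 8.99, 9.41 and 11.2 at 24 h. VEGFC was higher in every library at 6 and 12 h than in any library of the same population at 0 h. VP64_Ctrl gave 4.14, 3.89 and 4.79 at 0 h, 12.6, 11.9 and 9.27 at 6 h, 16.2, 14.4 and 14.2 at 12 h, and 6.88, 7.13 and 11.8 at 24 h. VP64_A gave 2.75, 3.90 and 3.95 at 0 h, 9.59, 7.04 and 11.1 at 6 h, 7.68, 8.71 and 6.80 at 12 h, and 7.57, 3.43 and 3.95 at 24 h. The mean was highest at 12 h in VP64_Ctrl and at 6 h in H47_Ctrl and VP64_A, and the 6 and 12 h libraries of H47_KO overlapped. The log2 fold changes at 6 h over 0 h were 1.36 ± 0.30 in H47_Ctrl, 1.31 ± 0.31 in H47_KO, 1.44 ± 0.28 in VP64_Ctrl and 1.40 ± 0.29 in VP64_A (SE; adjusted p from 1.97e-04 to 0.00203). At 12 h over 0 h they were 1.03 ± 0.32 in H47_Ctrl, 1.29 ± 0.29 in H47_KO, 1.81 ± 0.27 in VP64_Ctrl and 1.16 ± 0.29 in VP64_A (SE; adjusted p from 4.24e-06 to 0.0192). VEGFC was still raised at 24 h in H47_KO, by 1.02 ± 0.29 (SE; adjusted p = 0.0141), and in VP64_Ctrl, by 1.04 ± 0.27 (SE; adjusted p = 0.00725), whereas H47_Ctrl (0.38) and VP64_A (0.51) did not pass. Between 6 and 24 h VEGFC fell in H47_Ctrl, with a log2 fold change of -0.97 ± 0.30 (SE; adjusted p = 0.0275), and in VP64_A, with -0.89 ± 0.30 (SE; adjusted p = 0.0469), although the 6 and 24 h libraries of VP64_A overlapped. Single libraries decided 5 of these calls. The 12 h call in H47_Ctrl was lost without replicate 2 or 3 at either time (adjusted p from 0.0515 to 0.062). At 24 h the call in H47_KO was lost without replicate 1 at 0 h (0.69, adjusted p = 0.119) or replicate 3 at 24 h (0.90, 0.0671), and that in VP64_Ctrl without replicate 3 at 24 h (0.69, 0.127). The falls were lost without replicate 1 at 6 h or any 24 h library in H47_Ctrl (adjusted p from 0.0513 to 0.114), and without replicate 1 or 3 at 6 h or replicate 2 or 3 at 24 h in VP64_A (0.107 to 0.236).

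FLT1, the receptor for VEGFA and PGF, lies on the minus strand of chromosome 13 (28300346 to 28495145, 30 exons in the canonical transcript) and is known to yield a membrane-bound and a shorter soluble form. Its level in H47_Ctrl was 20.5, 17.5 and 16.5 at 0 h, 43.6, 38 and 31.7 at 6 h, 80.2, 70.3 and 59.5 at 12 h, and 22.5, 21 and 24.7 at 24 h. In H47_KO it was 14.3, 16.7 and 22.1 at 0 h, 55.6, 47.6 and 45.8 at 6 h, 80.03, 112 and 80.9 at 12 h, and 38, 41.9 and 40.9 at 24 h. Both populations reached their highest values at 12 h, with no overlap between the 12 h and 0 h libraries. In VP64_Ctrl FLT1 stood at 12, 12.5 and 15 at 0 h, 26.1, 23.2 and 24.3 at 6 h, 36.3, 44.7 and 28.1 at 12 h, and 14.7, 23 and 15.3 at 24 h. In VP64_A it stood at 7.38, 7.92 and 8.24 at 0 h, 16.3, 18.8 and 11.1 at 6 h, 21.1, 16 and 11.5 at 12 h, and 9.14, 7.21 and 9.79 at 24 h. The highest VP64_A library, at 21.1 CPM, lay under the lowest 12 h library of VP64_Ctrl at 28.1. At 6 h over 0 h the log2 fold changes of FLT1 were 1.05 ± 0.18 in H47_Ctrl, 1.48 ± 0.18 in H47_KO, 0.91 ± 0.22 in VP64_Ctrl and 0.98 ± 0.23 in VP64_A (SE; adjusted p from 8.64e-08 to 0.00264). With limma on log2(TPM + 1) and log2(TPM + 0.1) the sign in VP64_Ctrl at 6 h turned, to -0.0300 and -0.0198, where the median of all genes was -0.65 and -0.81. At 12 h over 0 h the log2 fold changes were 1.93 ± 0.18 in H47_Ctrl, 2.35 ± 0.17 in H47_KO, 1.48 ± 0.21 in VP64_Ctrl and 1.02 ± 0.23 in VP64_A (SE; adjusted p from 1.02e-12 to 0.00157). By 24 h FLT1 was still raised over 0 h in H47_KO, by 1.17 ± 0.17 (SE; adjusted p = 5.09e-06), whereas H47_Ctrl gave 0.32 ± 0.19 (SE; adjusted p = 0.353), VP64_Ctrl 0.40 ± 0.22 (SE; adjusted p = 0.238) and VP64_A 0.18 ± 0.25 (SE; adjusted p = 0.723). From 6 to 24 h it fell in H47_Ctrl, with a log2 fold change of -0.73 ± 0.18 (SE; adjusted p = 0.00444), and in VP64_A, with -0.80 ± 0.25 (SE; adjusted p = 0.0270). The latter call was lost without replicate 1 or 2 at 6 h or any 24 h library (adjusted p from 0.0542 to 0.156). The ratio of its count to its TPM, relative to the median ratio of the library, stands for the mean length of the transcripts counted, and in H47_KO it was 2.17 at 0 h, 2.55 at 6 h, 2.85 at 12 h and 2.34 at 24 h (means of 3 libraries). From 0 to 12 h this relative length went from 2.34 to 2.77 in H47_Ctrl, from 2.23 to 2.66 in VP64_Ctrl and from 2.51 to 2.79 in VP64_A, and at 24 h it was 2.44, 2.21 and 1.97. Fold changes of counts hold this shift in length, and its part in the changes of FLT1 was not tested.

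NRP1, on the minus strand of chromosome 10 (33177492 to 33336262, 17 exons), was abundant at rest and fell late. H47_Ctrl libraries held 189, 237 and 204 at 0 h, 156, 179.7 and 219 at 6 h, 177, 151 and 169.7 at 12 h, and 103, 81.3 and 98.7 at 24 h. H47_KO libraries held 259, 267 and 196 at 0 h, 255, 251 and 232 at 6 h, 213, 177 and 141 at 12 h, and 99.1, 80.1 and 107 at 24 h. In both, every 24 h library lay under every library of the earlier times. VP64_Ctrl libraries held 205, 193 and 246 at 0 h, 205, 223 and 198 at 6 h, 197, 154 and 205 at 12 h, and 119.7, 122 and 135 at 24 h. VP64_A libraries held 114, 114 and 119 at 0 h, 105, 102 and 103 at 6 h, 104, 102 and 130.1 at 12 h, and 70.8, 71 and 90.1 at 24 h. VP64_A libraries lay below every VP64_Ctrl library of the same time at all 4 times. The log2 fold changes of NRP1 at 24 h over 0 h were -1.15 ± 0.17 in H47_Ctrl, -1.33 ± 0.17 in H47_KO, -0.77 ± 0.15 in VP64_Ctrl and -0.58 ± 0.15 in VP64_A (SE; adjusted p from 6.23e-07 to 0.00793), and none of the 4 populations passed at 6 or 12 h. From 6 to 24 h the fall passed in H47_Ctrl, H47_KO and VP64_Ctrl, at -0.96 ± 0.17, -1.36 ± 0.17 and -0.73 ± 0.15 on the log2 scale (SE), and not in VP64_A (-0.41 ± 0.15). Without replicate 1 or replicate 2 of VP64_A at 24 h the 24 h call in that population was lost (-0.52 in both cases, adjusted p = 0.0575 and 0.0527).

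NRP2, on the plus strand of chromosome 2 (205681990 to 205798133, 17 exons), changed in the opposite direction. It rose from 14.6, 10.8 and 9.18 CPM at 0 h to 46.1, 37.2 and 43.7 at 6 h and 102, 90.3 and 87 at 12 h in H47_Ctrl, with 47.6, 37.4 and 51.1 at 24 h. The H47_KO libraries gave 8.84, 10.1 and 11.3 at 0 h, 47.3, 49.1 and 36.1 at 6 h, 105, 97.8 and 77.8 at 12 h, and 63.2, 41.9 and 70.1 at 24 h. No library at 6, 12 or 24 h overlapped the 0 h libraries of its population. The VP64_Ctrl libraries gave 5.54, 9.45 and 10.9 at 0 h, 63, 46.4 and 53.3 at 6 h, 79.7, 86.3 and 77.3 at 12 h, and 35.9, 49.6 and 37.7 at 24 h. The VP64_A libraries gave 12.1, 15.6 and 14 at 0 h, 89.2, 93.9 and 59.8 at 6 h, 61, 70.3 and 74.3 at 12 h, and 61.1, 50.4 and 61 at 24 h. VP64_A had its highest mean at 6 h, the other 3 populations at 12 h. Over 0 h the log2 fold changes of NRP2 were 1.85 ± 0.20 in H47_Ctrl, 2.11 ± 0.20 in H47_KO, 2.68 ± 0.21 in VP64_Ctrl and 2.55 ± 0.20 in VP64_A (SE; adjusted p from 5.47e-12 to 7.44e-09) at 6 h. At 12 h they were 2.98 ± 0.20 in H47_Ctrl, 3.21 ± 0.20 in H47_KO, 3.26 ± 0.21 in VP64_Ctrl and 2.31 ± 0.20 in VP64_A (SE; adjusted p from 1.27e-14 to 8.34e-11). They remained at 1.96 ± 0.20 in H47_Ctrl, 2.54 ± 0.19 in H47_KO, 2.26 ± 0.21 in VP64_Ctrl and 2.06 ± 0.20 in VP64_A (SE; adjusted p from 6.06e-12 to 5.79e-09) at 24 h. Between 6 and 24 h no population passed. The relative length, as defined for FLT1, also moved for NRP2 in the CRISPRa arm, from 1.77 at 0 h to 2.32 at 6 h and 2.44 at 12 h in VP64_Ctrl and from 1.97 to 2.35 and 2.37 in VP64_A, while it was 2.37, 2.23 and 2.42 in H47_Ctrl and 2.65, 2.39 and 2.44 in H47_KO. Its part in the changes of NRP2 was not tested.

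ANGPT1, the agonist of the endothelial receptor TEK, lies on the minus strand of chromosome 8 (107249482 to 107498055, 9 exons) and fell over the course. H47_Ctrl stood at 87.9, 89 and 74.3 at 0 h, 43.8, 46.8 and 61.9 at 6 h, 31.3, 25.5 and 25.7 at 12 h, and 26.6, 23.8 and 35.4 at 24 h. H47_KO stood at 127, 108 and 108 at 0 h, 89.9, 94.7 and 81 at 6 h, 42, 35.9 and 40.2 at 12 h, and 25.3, 28.8 and 38.1 at 24 h. The 0 h libraries of both lay above all of their 12 and 24 h libraries. VP64_Ctrl stood at 53.7, 57 and 68 at 0 h, 47.3, 39.4 and 45.8 at 6 h, 26.4, 22.3 and 21.9 at 12 h, and 33.4, 36 and 28.7 at 24 h. VP64_A stood at 39.9, 34.3 and 40.5 at 0 h, 37.7, 23.7 and 21 at 6 h, 30.3, 16.5 and 21.6 at 12 h, and 33.9, 30.2 and 34.8 at 24 h. VP64_A lay below VP64_Ctrl at 0 and 6 h, and the 24 h libraries of the pair overlapped. At 12 h over 0 h the log2 fold changes of ANGPT1 were -1.61 ± 0.18 in H47_Ctrl, -1.54 ± 0.16 in H47_KO, -1.33 ± 0.19 in VP64_Ctrl and -0.80 ± 0.20 in VP64_A (SE; adjusted p from 5.74e-09 to 0.00318). At 24 h they were -1.53 ± 0.17 in H47_Ctrl, -1.88 ± 0.16 in H47_KO and -0.87 ± 0.19 in VP64_Ctrl (SE), each past the test, and -0.21 ± 0.19 (SE; adjusted p = 0.546) in VP64_A. Only H47_Ctrl passed at 6 h, with -0.73 ± 0.16 (SE; adjusted p = 0.00125). A further fall from 6 to 24 h passed in H47_Ctrl (-0.80 ± 0.17) and H47_KO (-1.51 ± 0.17). Without replicate 2 at 12 h the 12 h call in VP64_A was lost (-0.60, adjusted p = 0.0546).

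Related genes were taken from lists compiled by function. Of 5 angiopoietin and Tie genes 2 were tested in each arm. TEK, the receptor of ANGPT1, had a median of 1 count and at most 57 counts in a library, and passed at 24 h over 0 h in both CRISPRko populations. It exceeded the floor of the counts in only 16 libraries and could meet the count filter only through those. The calls of TEK are thus a description, as for VEGFA. ANGPT2 had at most 4 counts. Of 8 angiopoietin-like genes 2 were tested, ANGPTL4 and ANGPTL2, and ANGPTL2 passed at neither 6 nor 24 h over 0 h nor between populations.

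ANGPTL4 encodes a secreted inhibitor of lipoprotein lipase that is also described as a regulator of vessel permeability, and it lies on the plus strand of chromosome 19 (8363289 to 8374370, 7 exons). At 6 h it had the largest log2 fold change of the 9 tested genes in H47_Ctrl, H47_KO and VP64_Ctrl, whereas that of ESM1 was larger in VP64_A. In H47_Ctrl its level was 1.08, 0.966 and 2.70 at 0 h, 306, 290.2 and 353 at 6 h, 129, 115 and 92.8 at 12 h, and 4.57, 6.54 and 7.37 at 24 h. In H47_KO the level was 1.94, 1.44 and 3.03 at 0 h, 348, 382 and 315 at 6 h, 182, 154 and 179.9 at 12 h, and 9.38, 13 and 11.5 at 24 h. No 0 h library of these populations held more than 3.03 CPM, and the 6 h libraries stood above all others. ANGPTL4 could not have entered the test of the CRISPRko arm without its stimulated libraries. The p-values of its rise in that arm are thus a description, as for VEGFA. In VP64_Ctrl ANGPTL4 reached 1.49, 2.49 and 2.55 at 0 h, 108, 138 and 139.7 at 6 h, 62.2, 60.9 and 62.5 at 12 h, and 9.28, 4.54 and 7.67 at 24 h. In VP64_A it reached 1.89, 2.77 and 3.95 at 0 h, 104, 128 and 151 at 6 h, 125, 121 and 166 at 12 h, and 15.9, 15.1 and 16 at 24 h. The 12 h libraries of H47_Ctrl, H47_KO and VP64_Ctrl lay below all of their own 6 h libraries, whereas those of VP64_A overlapped their 6 h libraries. The log2 fold changes of ANGPTL4 over 0 h were 7.79 ± 0.27 in H47_Ctrl, 7.31 ± 0.25 in H47_KO, 5.90 ± 0.24 in VP64_Ctrl and 5.54 ± 0.24 in VP64_A (SE; adjusted p from 1.01e-20 to 1.77e-18) at 6 h. They were 6.29 ± 0.27 in H47_Ctrl, 6.29 ± 0.25 in H47_KO, 4.85 ± 0.24 in VP64_Ctrl and 5.65 ± 0.24 in VP64_A (SE; adjusted p from 9.15e-20 to 9.43e-17) at 12 h and 2.08 ± 0.35 in H47_Ctrl, 2.35 ± 0.27 in H47_KO, 1.81 ± 0.27 in VP64_Ctrl and 2.52 ± 0.26 in VP64_A (SE; adjusted p from 4.07e-09 to 5.79e-05) at 24 h. From 6 to 24 h the level fell in all 4 populations, with log2 fold changes of -5.71 ± 0.23 in H47_Ctrl, -4.96 ± 0.21 in H47_KO, -4.08 ± 0.22 in VP64_Ctrl and -3.02 ± 0.21 in VP64_A (SE; adjusted p from 3.46e-18 to 1.38e-12). The 250 bases before its RefSeq start (GRCh38.p14, chr19:8363905-8364154, plus strand) are shown. ANGPTL4 changed with time in all 4 populations and differed between VP64_A and VP64_Ctrl at 12 and 24 h. The bases shown lie before the first exon of the canonical transcript and within an intron of other ANGPTL4 transcripts in GENCODE, which start further upstream. Capitals mark CACGT, the reverse complement of the hypoxia-response core ACGTG, 234 to 230 bases upstream, and the SMAD-type motif CAGAC, 139 to 135 bases upstream.
ANGPTL4: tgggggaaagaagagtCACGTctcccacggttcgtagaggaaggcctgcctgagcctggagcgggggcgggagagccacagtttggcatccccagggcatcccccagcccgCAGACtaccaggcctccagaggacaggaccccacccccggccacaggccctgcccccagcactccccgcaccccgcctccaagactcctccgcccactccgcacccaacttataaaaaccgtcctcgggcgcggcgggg
On either strand ACGTG occurs in 18.5% and CAGAC in 38% of 35116 RefSeq promoter stretches of the same length, and no match to the AP-1 motif TGANTCA (6.57% of stretches), the TEAD motif GGAATG (11.9%), the GLIS-type motif GGGGGGT (4.54%) or the NF-kB motif GGGANTTCC (1.59%) was found in this stretch. Letters that match are a description of the sequence and do not show that a factor binds there.

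ESM1 encodes endocan, a secreted proteoglycan known from endothelial tip cells, and lies on the minus strand of chromosome 5 (54977867 to 55022671, 3 exons). In H47_Ctrl it stood at 12.7, 13.8 and 13.5 at 0 h, 362, 697 and 673 at 6 h, 447, 363 and 391 at 12 h, and 37.5, 30.4 and 41.8 at 24 h. In H47_KO it stood at 17, 17.5 and 26.7 at 0 h, 1030.2, 1319 and 974 at 6 h, 926, 808 and 740.0 at 12 h, and 72.5, 57 and 60.5 at 24 h. The 6 and 12 h libraries exceeded every 0 and 24 h library of the same population. VP64_Ctrl held 38.8, 27.8 and 34.3 at 0 h, 1719, 1759.8 and 2023 at 6 h, 886, 766 and 1016 at 12 h, and 88, 103 and 90.1 at 24 h. VP64_A held 5.49, 6.67 and 5.60 at 0 h, 552, 569.5 and 488 at 6 h, 764, 378 and 559.8 at 12 h, and 78.9, 76.5 and 94.3 at 24 h. Every VP64_A library at 0 and 6 h lay below every VP64_Ctrl library of the same time. Over 0 h the log2 fold changes of ESM1 were 5.43 ± 0.26 in H47_Ctrl, 5.76 ± 0.26 in H47_KO, 5.77 ± 0.25 in VP64_Ctrl and 6.50 ± 0.26 in VP64_A (SE; adjusted p from 6.70e-19 to 2.38e-17) at 6 h. They were 4.91 ± 0.26 in H47_Ctrl, 5.33 ± 0.26 in H47_KO, 4.73 ± 0.23 in VP64_Ctrl and 6.58 ± 0.26 in VP64_A (SE; adjusted p from 1.03e-18 to 2.97e-16) at 12 h and 1.47 ± 0.24 in H47_Ctrl, 1.63 ± 0.23 in H47_KO, 1.48 ± 0.21 in VP64_Ctrl and 3.81 ± 0.24 in VP64_A (SE; adjusted p from 6.18e-14 to 4.87e-05) at 24 h. From 6 to 24 h ESM1 fell in all 4, with log2 fold changes of -3.97 ± 0.24 in H47_Ctrl, -4.12 ± 0.24 in H47_KO, -4.29 ± 0.23 in VP64_Ctrl and -2.68 ± 0.21 in VP64_A (SE; adjusted p from 4.16e-15 to 3.92e-11). Its 30 bases before the RefSeq start (GRCh38.p14, chr5:54985594-54985623, minus strand) are given because ESM1 showed the largest differences between VP64_A and VP64_Ctrl at 0 and 6 h. GENCODE places an untranslated exon of another ESM1 transcript there. Capitals mark the hypoxia-response core ACGTG, 18 to 14 bases upstream.
ESM1: taaaactcataaACGTGtaggcagaggctc
The alternative core GCGTG, present in 32.2% of promoter stretches, lies 153 to 149 bases upstream of ESM1, outside the stretch shown. It also occurs 59 to 55 bases upstream of VEGFC, 162 to 158 bases upstream of PGF and 206 to 202 bases upstream of FLT1, and none of the 7 motifs was found before NRP2.

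STC1 encodes stanniocalcin 1, a secreted glycoprotein that endothelial cells and fibroblasts can make, and lies on the minus strand of chromosome 8 (23841929 to 23854806, 4 exons). H47_Ctrl gave 4.86, 5.31 and 5.94 at 0 h, 29.9, 38.6 and 43.7 at 6 h, 106, 74.2 and 76.2 at 12 h, and 21.9, 21 and 26.4 at 24 h. H47_KO gave 6.54, 6.49 and 10.4 at 0 h, 40.8, 42.1 and 63.3 at 6 h, 57.9, 70.3 and 49.3 at 12 h, and 18.5, 19.7 and 23 at 24 h. Both had a 12 h mean above their 6 h mean, and no later library overlapped the 0 h libraries. STC1 was at 8.35, 8.78 and 11.2 at 0 h, 56.1, 69.6 and 62.6 at 6 h, 84.7, 65.7 and 67.4 at 12 h, and 22.3, 18.5 and 27.1 at 24 h in VP64_Ctrl. It was at 25.3, 24.1 and 21.9 at 0 h, 129, 157 and 177 at 6 h, 451, 225 and 371 at 12 h, and 198, 186 and 173 at 24 h in VP64_A. The VP64_A libraries lay above all VP64_Ctrl libraries of the same time at all 4 times, and the 24 h libraries of VP64_A overlapped neither its own 0 h libraries nor any of VP64_Ctrl. The log2 fold changes of STC1 at 6 h over 0 h were 2.81 ± 0.23 in H47_Ctrl, 2.63 ± 0.22 in H47_KO, 2.74 ± 0.22 in VP64_Ctrl and 2.69 ± 0.20 in VP64_A (SE; adjusted p from 2.20e-12 to 2.29e-11). At 12 h they came to 4.0 ± 0.23 in H47_Ctrl, 2.91 ± 0.21 in H47_KO, 2.96 ± 0.21 in VP64_Ctrl and 3.86 ± 0.21 in VP64_A (SE; adjusted p from 8.66e-16 to 1.13e-12) and at 24 h to 2.13 ± 0.24 in H47_Ctrl, 1.38 ± 0.22 in H47_KO, 1.30 ± 0.22 in VP64_Ctrl and 2.96 ± 0.20 in VP64_A (SE; adjusted p from 3.54e-13 to 3.28e-05). A fall between 6 and 24 h passed in H47_Ctrl (-0.68 ± 0.20 (SE; adjusted p = 0.0216)), H47_KO (-1.25 ± 0.20 (SE; adjusted p = 1.83e-05)) and VP64_Ctrl (-1.45 ± 0.21 (SE; adjusted p = 3.48e-06)), while VP64_A gave 0.27 ± 0.19 (SE; adjusted p = 0.391). The fall in H47_Ctrl was lost without replicate 2 or 3 at 6 h or replicate 1 or 2 at 24 h (adjusted p from 0.0592 to 0.0943).

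**Figure D2:**
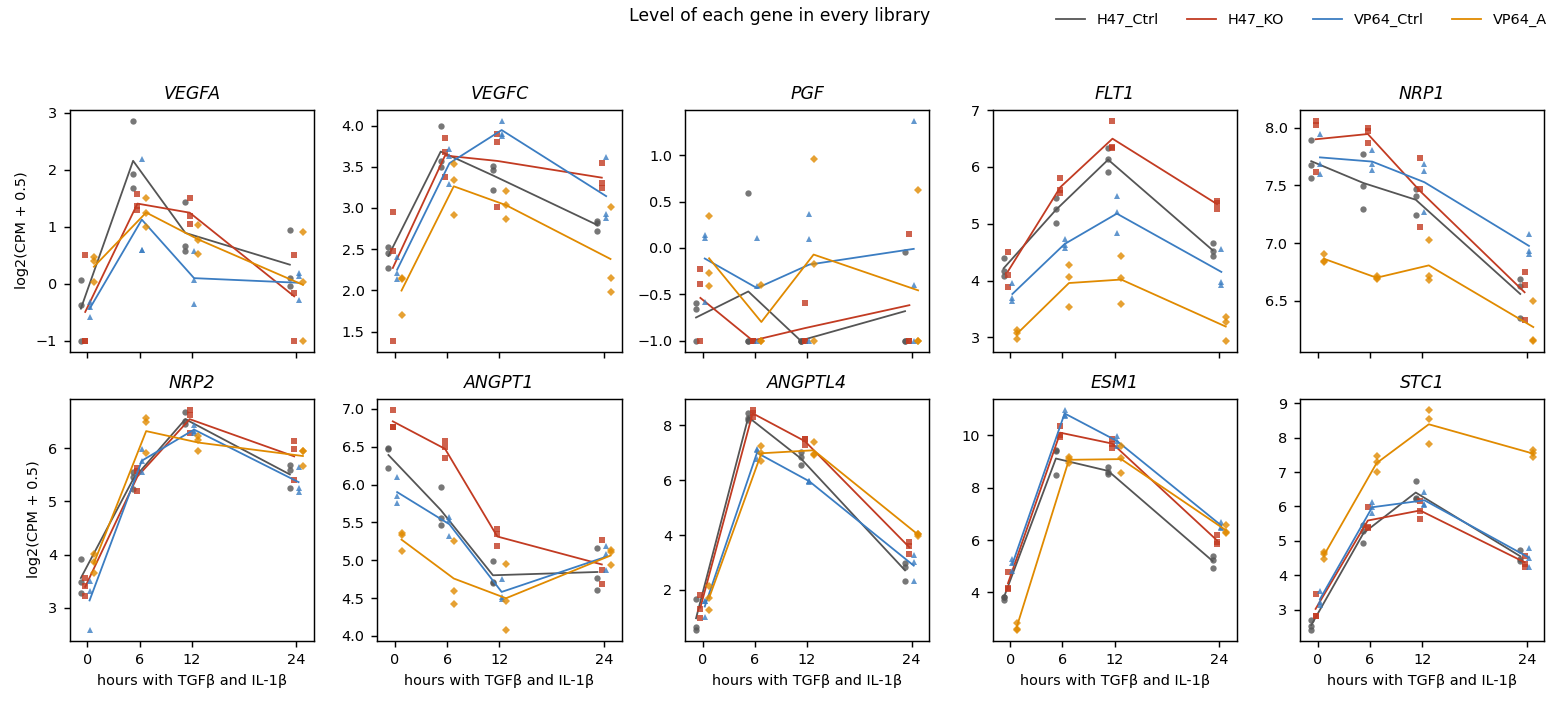
Level of each of the 10 genes in every library (points), as log2 of CPM plus 0.5, against hours with TGFβ and IL-1β, with lines through the means of 3 libraries in each of the 4 populations (points are offset sideways by population). ANGPTL4, ESM1, NRP2 and STC1 rise from 0 to 6 h in all 4 populations, NRP1 ends lower at 24 h than at 0 h in all 4, and PGF shows scattered single counts.

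Counted over the 9 tested genes, 8 changed between 0 and 6 h in H47_Ctrl (15.9% of all genes tested changed), 7 in H47_KO (23.9%), 7 in VP64_Ctrl (28.8%) and 6 in VP64_A (17.4%). At 12 h over 0 h the counts were 7 (19.6%), 8 (27.4%), 7 (26.8%) and 7 (19.7%), in the same order of populations. They were 6 (10.3%), 8 (15.8%), 7 (16%) and 5 (13.6%) at 24 h. The median log2 fold change of the 9 genes at 6 h was 1.85 in H47_Ctrl, 2.11 in H47_KO, 2.68 in VP64_Ctrl and 1.40 in VP64_A, where the median of all genes was -0.03, -0.10, -0.05 and -0.01. These contrasts share the 0 h libraries within a population, and the genes were chosen with such changes known, so the counts describe the set and are not independent evidence of a response. Without VEGFA, which was admitted to the test by its stimulated libraries, the counts over the other 8 genes were 7, 6, 6 and 6 at 6 h, 7 in every population at 12 h, and as above at 24 h. ANGPTL4, still in these counts, also needed its stimulated libraries in the CRISPRko arm. There it reached the limit of the filter in 1 library of each population at 0 h and in all 3 at 6, 12 and 24 h. At 1 or more of these 3 times 9 of the 9 genes changed in H47_Ctrl (29.1% of all genes), 9 in H47_KO (40.9%), 9 in VP64_Ctrl (42.8%) and 8 in VP64_A (31.4%). Between 6 and 24 h the background was 14.6% in H47_Ctrl, 24.2% in H47_KO, 18.4% in VP64_Ctrl and 12.5% in VP64_A.

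H47_KO was compared with H47_Ctrl at each time. ESM1 was higher in H47_KO than in H47_Ctrl at 6 h, by a log2 fold change of 0.94 ± 0.21 (SE; adjusted p = 0.0360), and at 12 h, by 1.04 ± 0.21 (SE; adjusted p = 0.0310). ANGPT1 was higher at 6 h, by 0.80 ± 0.17 (SE; adjusted p = 0.0208), and FLT1 was higher at 24 h, by 0.81 ± 0.18 (SE; adjusted p = 0.0396). In each of these 4 cases the 3 libraries of H47_KO lay above the 3 of H47_Ctrl. At 0 h no member passed, where 0.301% of all genes did, and the counts were 2 of 9 at 6 h (0.319%), 1 at 12 h (0.0821%) and 1 at 24 h (0.21%). Over any of the 4 times 3 of 9 genes passed against 0.712% of all genes, which is 78 of 10962. ANGPTL4 was 0.61 ± 0.17 at 12 h and 0.88 ± 0.25 at 24 h without passing, and STC1 was 0.57 ± 0.25 at 0 h and -0.52 ± 0.19 at 12 h. The median log2 fold change of the 9 genes was 0.44, 0.39, 0.38 and 0.37 at 0, 6, 12 and 24 h, beside 0.02, -0.03, 0 and 0.02 for all genes. None of the 4 calls withstood the loss of every single library, while the fold changes changed less. ESM1 at 12 h was lost whichever of the 6 libraries compared was left out (log2 fold change from 0.95 to 1.13, adjusted p from 0.0658 to 0.256), and ESM1 at 6 h without any but replicate 2 of H47_Ctrl (0.68 to 1.06, adjusted p from 0.056 to 0.36). ANGPT1 at 6 h was lost without replicate 1 or 2 of either population (0.70 to 0.78, adjusted p from 0.0695 to 0.199), and FLT1 at 24 h without any but replicate 1 of H47_KO (0.78 to 0.87, adjusted p from 0.118 to 0.23). Without replicate 2 of H47_KO at 6 h, or replicate 2 or 3 of H47_Ctrl at 0 h, 1 of the 9 genes passed at any time. None of the 4 passed with limma on TPM values, and all 4 kept their sign. With limma on log2(TPM + 1) another difference passed, that of ESM1 at 24 h.

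VP64_A and VP64_Ctrl differed in 8 of the 9 genes at 1 or more times, against 13.1% of all genes tested (1437 of 10980). The counts were 6 at 0 h (9.41% of all genes), 4 at 6 h (3.76%), 5 at 12 h (4.31%) and 4 at 24 h (4.13%). VEGFA was the 1 tested gene that passed at no time. The median log2 fold change of the 9 genes was -0.28, -0.32, -0.24 and -0.15, beside -0.02, 0.01, 0 and -0.02 for all genes.

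Among the receptors, NRP1 was lower in VP64_A at all 4 times. Its log2 fold change was -0.89 ± 0.15 (SE; adjusted p = 1.05e-04) at 0 h, -1.01 ± 0.15 (SE; adjusted p = 2.75e-05) at 6 h, -0.72 ± 0.15 (SE; adjusted p = 0.00215) at 12 h and -0.69 ± 0.15 (SE; adjusted p = 0.00377) at 24 h. At 6 h this was a 2.02-fold lower level, with every VP64_A library below 106 CPM and every VP64_Ctrl library above 197. FLT1 was lower in VP64_A at 0 h (-0.74 ± 0.22 (SE; adjusted p = 0.0324)), 12 h (-1.20 ± 0.22 (SE; adjusted p = 4.53e-04)) and 24 h (-0.96 ± 0.24 (SE; adjusted p = 0.0140)), and at 6 h it gave -0.67 ± 0.23 (SE; adjusted p = 0.114). The 12 h difference in FLT1 was 2.30-fold. NRP2 was higher in VP64_A at 0 h only, by 0.71 ± 0.21 (SE; adjusted p = 0.0306) (mean TPM, which is scaled for length, 4.77 against 4.54), with 0.57 ± 0.19 at 6 h and 0.51 ± 0.19 at 24 h below the threshold of calling. Leaving out 1 library ended the FLT1 call at 0 h for replicate 3 of VP64_Ctrl (-0.65, adjusted p = 0.137) and for each VP64_A library (0.066 to 0.122), and at 24 h for replicate 2 of VP64_Ctrl (-0.76, 0.105) and replicate 2 of VP64_A (-0.86, 0.0804). The NRP2 call was lost without replicate 1 of VP64_Ctrl (0.45, adjusted p = 0.197) or replicate 2 or 3 of VP64_A (0.62 and 0.69, adjusted p = 0.111 and 0.0757).

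Of the ligands, VEGFC was lower in VP64_A at 12 h, with a log2 fold change of -0.94 ± 0.27 (SE; adjusted p = 0.0421), a 1.91-fold difference. This call was lost whichever of the 6 libraries was left out (adjusted p from 0.0768 to 0.177). ANGPT1 was lower in VP64_A at 0 h (-0.64 ± 0.18 (SE; adjusted p = 0.0216)) and 6 h (-0.68 ± 0.20 (SE; adjusted p = 0.0458)). At 12 and 24 h its log2 fold changes were -0.10 and 0.03, neither past the threshold. The 0 h call of ANGPT1 was lost without replicate 3 of VP64_Ctrl (-0.54, adjusted p = 0.128) or replicate 1 or 2 of VP64_A (0.0565 and 0.0932), and the 6 h call without any library but replicate 1 of VP64_A (0.0543 to 0.268).

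Of the differences that passed, the largest were those of ESM1 and STC1. ESM1 was lower in VP64_A at 0 h, with a log2 fold change of -2.50 ± 0.24 (SE; adjusted p = 3.76e-09), and at 6 h, with -1.77 ± 0.20 (SE; adjusted p = 3.06e-07), which correspond to 5.67-fold and 3.42-fold lower levels. The difference was -0.65 ± 0.20 (SE; adjusted p = 0.0589) at 12 h and -0.16 ± 0.21 (SE; adjusted p = 0.796) at 24 h, when the libraries of both populations overlapped and ran from 76.5 to 103 CPM. STC1 was higher in VP64_A at every time, by 1.35 ± 0.21 (SE; adjusted p = 3.83e-05) at 0 h, 1.30 ± 0.19 (SE; adjusted p = 2.75e-05) at 6 h, 2.26 ± 0.19 (SE; adjusted p = 7.07e-10) at 12 h and 3.01 ± 0.21 (SE; adjusted p = 3.55e-12) at 24 h, the last an 8.06-fold difference. ANGPTL4 was higher at 12 h, by 1.15 ± 0.18 (SE; adjusted p = 5.89e-05), and at 24 h, by 1.06 ± 0.24 (SE; adjusted p = 0.00436), which are 2.22-fold and 2.08-fold. The calls of ESM1, STC1, NRP1 and ANGPTL4 withstood the loss of any 1 of the libraries compared. Without replicate 3 of VP64_Ctrl at 0 h, the library that stood apart, ESM1 (-2.49), NRP1 (-0.78), NRP2 (0.88) and STC1 (1.47) still passed at 0 h.

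**Figure D3:**
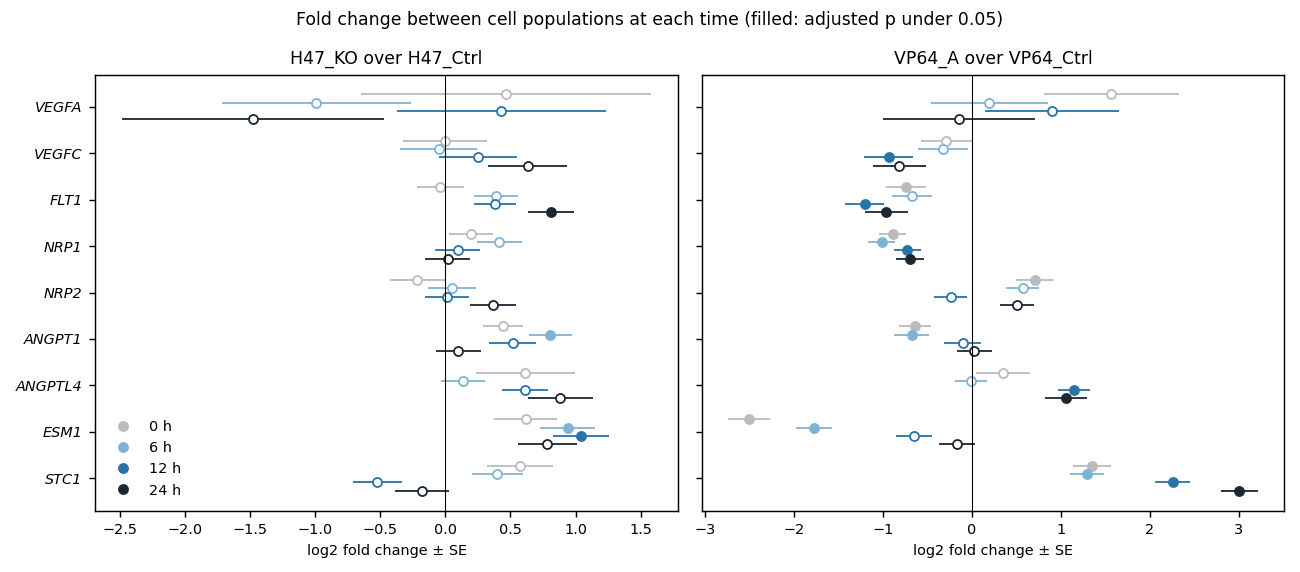
Log2 fold change ± SE of the 9 tested genes between the populations of each arm (left, H47_KO over H47_Ctrl; right, VP64_A over VP64_Ctrl) at 0, 6, 12 and 24 h, with filled points for an adjusted p under 0.05. The x axes differ between the panels: on the left the largest difference that passed is ESM1 at 12 h (1.04), and on the right ESM1 reaches -2.50 at 0 h and STC1 3.01 at 24 h.

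Whether the change with time itself differed between populations was tested as an interaction. In the CRISPRa arm the rise of ESM1 over 0 h was larger in VP64_A than in VP64_Ctrl by 1.85 ± 0.31 (SE; adjusted p = 0.00505) on the log2 scale at 12 h and by 2.34 ± 0.31 (SE; adjusted p = 1.96e-04) at 24 h. STC1 rose more in VP64_A by 1.66 ± 0.29 (SE; adjusted p = 0.00416) at 24 h. No other member passed, and of all genes tested 0.0911% passed at 6 h, 0.264% at 12 h and 0.209% by 24 h, and 0.437% (48 genes) at any of these times, 2 of the 9 members among them. The interaction of ESM1 at 12 h was lost without replicate 1 of VP64_A at 0 h (1.79, adjusted p = 0.0507). For ANGPTL4 the interaction was 0.80 ± 0.36 (SE; adjusted p = 0.399) at 12 h. In the CRISPRko arm no member passed at 6, 12 or 24 h in edgeR or DESeq2, where edgeR called 1, 0 and 0 of all genes (0.00912%, 0% and 0%; 869, 709 and 616 at an unadjusted p under 0.05) and DESeq2 41, 0 and 1. The interactions share the 0 h libraries with the comparisons above.

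**Figure D4:**
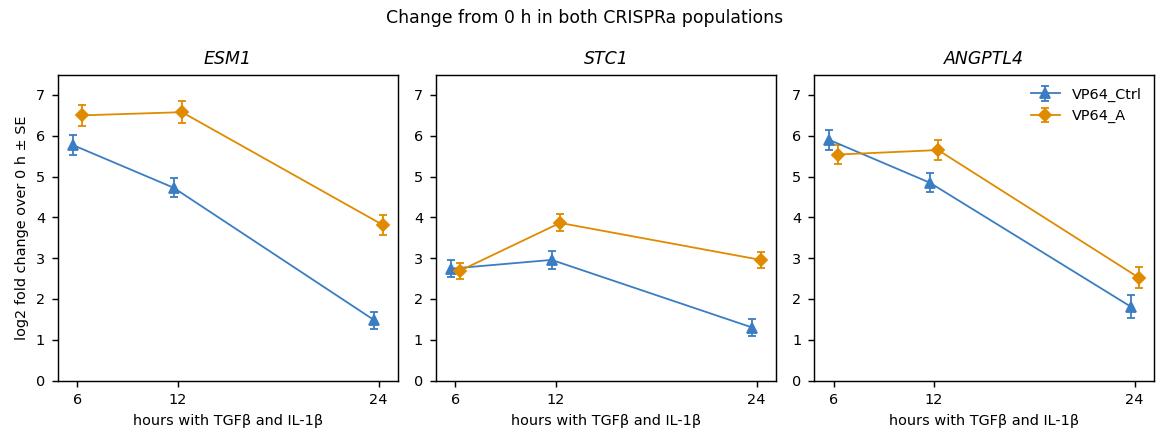
Log2 fold change ± SE over 0 h of ESM1, STC1 and ANGPTL4 at 6, 12 and 24 h in VP64_Ctrl and VP64_A (3 libraries per condition). At 24 h ESM1 is 3.81 over 0 h in VP64_A and 1.48 in VP64_Ctrl, and STC1 is 2.96 and 1.30.

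Other genes of the same pathways came from the lists compiled by function. VEGFB, the remaining VEGF ligand with counts in most libraries, had a median of 1.81 TPM and passed in none of the population comparisons. Of 10 secreted regulators of endothelium, the list that holds ESM1 and STC1, 6 were tested. EDN1, which encodes the vasoconstrictor endothelin 1, rose at 6 h over 0 h by log2 fold changes of 5.32 ± 0.33 in H47_Ctrl, 4.71 ± 0.32 in H47_KO, 3.97 ± 0.28 in VP64_Ctrl and 4.96 ± 0.27 in VP64_A (SE; adjusted p from 6.61e-16 to 6.90e-13), and it was higher in VP64_A at 6 h by 1.47 ± 0.22 (SE; adjusted p = 2.65e-05). STC2, the paralogue of STC1, was higher in VP64_A at all 4 times, by 1.40 ± 0.16, 0.74 ± 0.16, 1.29 ± 0.16 and 0.62 ± 0.15 on the log2 scale (SE). Of 12 class 3 semaphorins and plexins 7 were tested, and none passed in the CRISPRko comparison, where 0.712% of all genes passed at any time, so 0 of 7 is near the background. SEMA3A, a repulsive ligand that signals through NRP1, was lower in VP64_A at all 4 times, with log2 fold changes of -1.35 ± 0.14, -1.21 ± 0.15, -1.16 ± 0.15 and -1.70 ± 0.17. It also fell at 24 h over 0 h, with -2.59 ± 0.24 in H47_Ctrl, -2.54 ± 0.22 in H47_KO, -1.23 ± 0.14 in VP64_Ctrl and -1.57 ± 0.16 in VP64_A (SE; adjusted p from 9.52e-11 to 7.14e-08). SEMA3C rose at 6 h, by 1.72 ± 0.23 in H47_Ctrl, 2.03 ± 0.23 in H47_KO, 1.97 ± 0.23 in VP64_Ctrl and 0.83 ± 0.22 in VP64_A (SE; adjusted p from 3.36e-08 to 0.00786).

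Among 12 secreted inhibitors of angiogenesis 8 were tested, and their median log2 fold change lay between -0.16 and 0.17 in the population comparisons. TIMP3, an inhibitor of metalloproteinases that also binds KDR, was lower in VP64_A at all 4 times, with log2 fold changes of -0.94 ± 0.20, -1.09 ± 0.21, -0.85 ± 0.20 and -1.08 ± 0.20 (SE). THBS1, which encodes thrombospondin 1, rose at 24 h over 0 h by 2.12 ± 0.37 in H47_Ctrl, 1.5 ± 0.36 in H47_KO, 3.75 ± 0.32 in VP64_Ctrl and 3.38 ± 0.32 in VP64_A (SE; adjusted p from 8.19e-11 to 0.00340). SPARC was higher in VP64_A at 0, 12 and 24 h, by 1.70 ± 0.29, 1.07 ± 0.28 and 1.17 ± 0.28. None of the 8 passed between H47_KO and H47_Ctrl at any time, which is again near the background of 0.712%.

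VEGFA and ANGPTL4 are classical targets of the hypoxia-inducible factors, so a list of 15 other hypoxia-response genes was counted beside them. In VP64_A 8 of 13 tested genes were higher at 0 h (9.41% of all genes differed in either direction), 4 at 6 h (3.76%), 8 at 12 h (4.31%) and 6 at 24 h (4.13%), none was lower, and the list medians were 1.04, 0.83, 1.24 and 1.06 on the log2 scale. BNIP3, a mitochondrial autophagy receptor, was higher by 1.68 ± 0.20, 1.57 ± 0.20, 2.12 ± 0.20 and 1.97 ± 0.20 (SE). PDK1, which limits entry of pyruvate into the mitochondrion, was higher by 1.95 ± 0.30, 1.67 ± 0.34, 1.88 ± 0.33 and 1.46 ± 0.31. CA9, a carbonic anhydrase, was at 0 in the VP64_Ctrl libraries at 0, 6 and 12 h and had a mean of 2.08 CPM in VP64_A at 0 h. It exceeded 3 counts in only 10 libraries and could meet the count filter only through those. Where CA9 is among the tested genes, its part in the counts of this list is therefore a description. HIF1A was higher in VP64_A at 0, 6 and 12 h (1.10 ± 0.21, 0.95 ± 0.21 and 0.88 ± 0.21), and EPAS1 was lower at all 4 times (-1.25 ± 0.15, -1.06 ± 0.17, -0.57 ± 0.17 and -0.81 ± 0.18). Between H47_KO and H47_Ctrl 0 of 12 tested genes of the list passed at each of the 4 times, with medians of 0.01, 0.16, 0.13 and 0.16. With 0.301%, 0.319%, 0.0821% and 0.21% of all genes passing there, 0 of 12 is a share near the background. The part of these genes in the differences of STC1, ESM1 and ANGPTL4 was not tested.

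Marker levels of other cell types were set side by side in the populations of each arm, with no test. The summed level of 5 epithelial markers at 0 h was 91.8 ± 13.5 TPM in VP64_A and 34.7 ± 3.77 in VP64_Ctrl (SD, n = 3). It was 73.1 ± 11.1 and 16.1 ± 6.98 at 6 h, 71.1 ± 19.1 and 14.8 ± 4.84 at 12 h, and 24.3 ± 2.75 and 13.4 ± 3.90 at 24 h, with every VP64_A library above every VP64_Ctrl library at all 4 times. EPCAM was at 0 in all 48 libraries, CDH1 reached 2 counts and KRT5 reached 1, so 2 of the 5 exceeded 3 counts in any library. That of 7 pericyte markers was 33.5 ± 4.0 and 75.7 ± 37.5 TPM at 0 h, 27.7 ± 3.51 and 41.5 ± 2.30 at 6 h, 24.8 ± 5.35 and 35.4 ± 4.27 at 12 h, and 32.7 ± 0.492 and 65.7 ± 19.5 at 24 h (SD, n = 3), in VP64_A below VP64_Ctrl in every library of each time, led by CSPG4, with 5 of the 7 above 3 counts in any library and MCAM and DES not. The summed level of 6 leukocyte markers was 17.9 ± 2.19 and 40.5 ± 7.27 TPM at 0 h, 16.4 ± 3.94 and 27.8 ± 9.10 at 6 h, 23.6 ± 8.80 and 40.3 ± 4.72 at 12 h, and 31.6 ± 4.47 and 60.5 ± 8.08 at 24 h (SD, n = 3). For the 15 endothelial markers it was 1.56 ± 0.121 and 5.27 ± 3.31 at 0 h, 3.60 ± 1.94 and 2.40 ± 0.0856 at 6 h, 3.44 ± 0.838 and 6.58 ± 1.88 at 12 h, and 2.61 ± 0.534 and 3.53 ± 1.33 at 24 h (SD, n = 3). At 0 and 12 h the endothelial sums of all VP64_A libraries lay below those of all VP64_Ctrl libraries, and at 6 and 24 h they overlapped. Replicate 3 of VP64_Ctrl at 0 h, the library that stood apart, had the highest endothelial and pericyte sums of its group, whose means without it were 3.38 and 54.1 TPM. In the CRISPRko arm the leukocyte sum was 33.1 ± 9.10 TPM in H47_KO and 18.7 ± 1.82 in H47_Ctrl at 0 h, and 44.3 ± 11.1 and 19.2 ± 3.5 at 24 h (SD, n = 3), with no overlap at either time, and at 6 and 12 h the libraries overlapped. The endothelial sum at 24 h was 4.98 ± 3.52 in H47_KO, or 2.95 without replicate 3, and 2.52 ± 0.231 in H47_Ctrl, with every H47_KO library above every H47_Ctrl library. At the earlier times the endothelial sums overlapped. The epithelial sum at 0 h was 24.7 ± 4.86 and 19.96 ± 1.45, also with no overlap. The sum of the fibroblast markers at 0 h was 21732 ± 2135 TPM in H47_KO and 28099 ± 1469 in H47_Ctrl (SD, n = 3), with no overlap. In VP64_A the mean fibroblast sum was above that of VP64_Ctrl at 0 h (20728 and 15977 TPM). It was below at 12 h (18484 and 21901) and 24 h (17544 and 21971), with no overlap at these 3 times. At the other times the fibroblast sums overlapped in both arms. Over all 48 libraries the sums ran from 6.41 to 101 TPM for epithelial, from 18.8 to 119 for pericyte and from 13.7 to 69.7 for leukocyte markers (3 of 6 above 3 counts, led by CD68). The part of these cell types in the differences within either arm was not tested.

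Across the 16 conditions the members varied to different degrees. TMM was applied within each arm, so levels were not scaled between the arms. The mean log2 CPM of ESM1 spanned 8.20 units, that of ANGPTL4 7.56 and that of STC1 5.87, whereas FLT1 (3.46), NRP2 (3.43), VEGFA (2.92), ANGPT1 (2.35), VEGFC (1.99) and NRP1 (1.68) spanned less. Over the 16 condition means, which share the course of stimulation, Pearson's r was 0.937 between ANGPTL4 and ESM1, 0.877 between VEGFC and ESM1 and 0.798 between NRP2 and STC1. NRP1 went with ANGPT1 (r = 0.709), and NRP2 against it (r = -0.708). Of 10691 genes tested in both arms, those whose condition means lay closest to ESM1 were PHACTR1 (r = 0.972), SMURF2 (0.968) and ATP13A3 (0.961). Closest to ANGPTL4 were ALG2 (0.979), SEC24A (0.973) and PLCXD1 (0.970), and closest to STC1 were NRBP1 (0.949), ALPK2 (0.941) and HK2 (0.932).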

How the data were processed

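RNA-seq was analysed in 48 libraries, 3 for each of 16 conditions (4 populations at 0, 6, 12 and 24 h). The authors cleaned the reads of low-quality bases, adaptors and ribosomal RNA (Trim Galore, SortMeRNA), mapped them with STAR (GRCh38) and obtained gene values from Salmon. Versions, the annotation and the counting strand are not given in the sources used here. As deposited, the estimated counts carry no scaling between libraries, and 6.38% of them were not whole. The deposited TPM values are scaled by the authors for transcript length and to one total per library. Salmon shares reads between similar transcripts.

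Estimated counts were rounded, and each arm (24 libraries, 8 conditions) was fitted with edgeR 4.0.16 in R 4.3.3, using TMM, filterByExpr (minimum count 10, minimum total 15) and the two-sided quasi-likelihood F test, whose SE is the log2 fold change over the root of F. Benjamini-Hochberg adjustment ran over 10962 genes (CRISPRko) and 10980 (CRISPRa), with a call at an adjusted p under 0.05. Intervals and floors (3 counts) cover counting error only. Groups were taken from the labels. All 10 genes are named, and of each list the genes with the largest changes that passed. The genes and lists were chosen with earlier results of these data known. Nearest patterns are the 3 highest Pearson correlations over 16 condition means (log2 CPM, prior count 2). The RefSeq promoters of VEGFC, PGF, FLT1, NRP2, ANGPTL4 and ESM1 were searched on both strands over 250 bases. Gene coordinates are those of GENCODE v44 on GRCh38.

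The alternatives were a fit of only the libraries compared, each library left out, a replicate block, all genes kept without a count filter, DESeq2 1.42.0, edgeR with size factors from DESeq2, and limma 3.58.1 on log2 of TPM with 1 or 0.1 added. Among 48 pairs of replicates 0 were identical, and the lowest chi-square per degree of freedom was 3.80. No column was left unmatched.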

Additional observations from a re-analysis of the deposited data

Results flagged for a closer look

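Results whose change with time differed between the populations of the CRISPRa arm concern ESM1 and STC1. For ESM1 the log2 fold change over 0 h was larger in VP64_A than in VP64_Ctrl by 1.85 ± 0.31 (SE; edgeR interaction, adjusted p = 0.00505) at 12 h and by 2.34 ± 0.31 (adjusted p = 0.000196) at 24 h. For STC1 it was larger by 1.66 ± 0.29 (adjusted p = 0.00416) at 24 h. In these comparisons the 3 VP64_A libraries at 0 h lay below the 3 VP64_Ctrl libraries for ESM1 and above them for STC1.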

How the results depend on the processing

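The 131 fold changes of member genes that passed the test were recomputed. Of these, 87 kept their direction and their side of the threshold under every alternative, 43 lost the call under at least 1, and 1 changed sign. Changes that did not pass are outside this tally, so it holds no call gained under an alternative. The 1 that changed sign was FLT1 at 6 h over 0 h in VP64_Ctrl. It gave -0.0300 with limma on log2(TPM + 1) and -0.0198 on log2(TPM + 0.1). The median of all genes was -0.65 and -0.81 in these fits. TPM values are not TMM-scaled, and such shifts of the median accompany both limma fits. TPM is also scaled for transcript length, and the relative length of FLT1 in VP64_Ctrl was 2.23 at 0 h and 2.50 at 6 h. The part of either in the change of sign was not tested. DESeq2 and its size factors changed none of the 131, no filter on low counts and the replicate block ended 1 each, and a fit of only the libraries compared ended 7 of 127, among them FLT1 (-0.74, adjusted p = 0.0536) and NRP2 (0.70, adjusted p = 0.109) at 0 h in the CRISPRa arm. The 2 limma fits ended 34 and 35. Leaving out 1 library ended 90 of 804.

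Of the 9 tested genes 3 differed between H47_KO and H47_Ctrl at any time, 1 with limma on log2(TPM + 1) (ESM1 at 24 h), 0 on log2(TPM + 0.1), 2 with only the libraries compared, and 1 to 3 with a library left out. For VP64_A against VP64_Ctrl the count was 8, with 6 in both limma fits, 7 with only the libraries compared, and 7 to 8 with a library left out. Over time it was 9 in H47_Ctrl (9 with any library left out), 9 in H47_KO (8 to 9), 9 in VP64_Ctrl (8 to 9) and 8 in VP64_A (7 to 8), and both limma fits gave 8, 8, 8 and 6. With only the libraries compared it was 9, 8, 8 and 8. For interactions the CRISPRko arm gave 0 and the CRISPRa arm 2, whichever library was left out, and the CRISPRa arm gave 3 without a count filter. Over all genes, calls between H47_KO and H47_Ctrl at 0, 6, 12 and 24 h numbered 33, 35, 9 and 23, with DESeq2 113, 169, 26 and 36, without a count filter 137, 142, 81 and 92, and with limma on log2(TPM + 1) 11, 5, 3 and 22. Interactions in the CRISPRa arm at 6, 12 and 24 h numbered 10, 29 and 23, with DESeq2 47, 71 and 40, and without a count filter 106, 162 and 81. VP64_Ctrl changed in 3165 genes at 6 h over 0 h, and in 6177 with limma on log2(TPM + 1). The cause of the lost calls was not tested.

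Deviations of libraries with the same replicate number, which follows label order, were correlated between conditions. In 0 of 20 pairs of conditions were all correlations over 0.1 (median 0.011, from -0.101 to 0.19). With the replicate block the counts above stayed at 3, 8, 9, 9, 9, 8, 0 and 2, and VEGFA at 24 h over 6 h in H47_Ctrl lost its call (-2.25, adjusted p = 0.0628).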
